A study of Arabidopsis thaliana with 9 samples.

Results

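The comparison described here set RGA-GR Dex against nontransgenic Dex, 3 arrays each and so 6 of the 9 arrays in the series. Its members were taken by their labels, and no measured value chose them. All plants were Arabidopsis thaliana of the genotype ga1-3 rga rgl2. RGA-GR Dex plants carried in addition a fusion of RGA with a glucocorticoid receptor (RGA-GR) and were given dexamethasone (Dex). Nontransgenic Dex plants had no transgene and were given the same Dex. Inflorescences from which flowers later than stage 12 had been left out were sampled at 4 h. The third group, RGA-GR mock (the transgenic line without Dex, 3 arrays), entered the fit, where it added to the estimate of the spread, and its values are set beside those of the comparison. The promoter of the transgene and the number of transgenic lines are not given in the sources used here. Dex is the same on both sides, so by design the 2 groups differ in the transgene, in where it inserted and in the activated product. Signals of control probe sets, given below, also differed between the groups. A difference in how the arrays were processed therefore cannot be told apart from these either, nor these from each other. Where mock values are given, they share the RGA-GR Dex arrays with the main difference.

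Gibberellin (GA) is a plant hormone that drives germination, stem growth and the development of stamens and petals. In its absence DELLA proteins, nuclear regulators without a DNA-binding domain of their own, hold growth back by binding transcription factors. GA bound to a GID1 receptor brings the DELLA proteins to an F-box protein that marks them for degradation. The ga1-3 mutation blocks an early step of GA synthesis, and rga and rgl2 remove a pair of the DELLA proteins. A fusion to the glucocorticoid receptor stays inactive in the cytoplasm until Dex lets it into the nucleus, so that Dex restores RGA function in the transgenic plants. DELLA activity in flowers is known for arresting anther development before mature pollen forms.

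Each deposited value is a ratio, in most rows to the row's median across the 9 arrays, which lets arrays but not genes be compared. A value of 0.00 on the log2 scale is that median, and many arrays read exactly 0.00 for that reason. Differences are log2 differences of group means with the moderated SE from limma, and "rose" and "fell" mean higher and lower in RGA-GR Dex with an adjusted p under 0.05. A filter on low ratios kept 17273 of 22746 probe sets, with 9524 named genes among them. It kept all 15062 probe sets with a row median of 1 and 2211 of the 7684 with a median under 1. It acted on ratios, so it did not select by signal level, and dim probe sets could stay in. Ratios to a median hold no level, so the labelled tissue could not be checked against the level of its markers. No probe set was paired by name with RGA, RGL2 or GA1, so the transgene could not be checked. The median log2 ratio of 12 probe sets of spiked-in poly-A control RNAs lay between -4.20 and -2.64 on the RGA-GR Dex and RGA-GR mock arrays numbered 1 and 2, and between 0.00 and 1.25 on the other 5 arrays. Control probe sets for bioB, bioC, bioD and cre were not low on those 4 arrays. Each of these had its lower mean on the nontransgenic side, with RGA-GR Dex above by 0.30 to 1.17 on the log2 scale. The median rise given below, 1.04, lies in that range but is taken over probe sets chosen for rising. Over all probe sets kept, the median difference was 0.14. A link of the control signals to the values of genes was not tested. All 3 nontransgenic arrays had poly-A control signal, so among arrays numbered 1 and 2 the loss of that signal went with the transgenic line. Those 5 arrays hold 1 RGA-GR Dex array, replicate 3, so a fit of them alone assumes that it varies like the other groups and is no check of single genes. With 3 arrays a group, precision is limited, and the median SE of a difference was 0.26.

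Of the probe sets tested, 4660 differed between the groups with an adjusted p under 0.05 (27.0%), 3029 of them higher in RGA-GR Dex (17.5%) and 1631 lower (9.44%). The rises were many and small, and the falls fewer and larger. The median rise was 1.04 and the median fall -1.19, and past 8-fold 176 probe sets fell and 47 rose. With no adjustment, 6974 had a p under 0.05 (40.4%), and 2690 of the calls were at least 2-fold (15.6%). The groups did not overlap in 7974 probe sets (46.2%). In 4940 of these the 3 RGA-GR Dex arrays lay above the 3 nontransgenic arrays (28.6%) and in 3034 below (17.6%). The share of rises among the calls, 65.0%, depended on how the arrays were centred. It was 53.4% after quantile normalization and 43.7% with array medians subtracted, which moved the median difference of all probe sets from 0.14 to -0.05. Fitting the 6 arrays of the comparison alone gave 4414 calls, 3993 of them among the 4660. In every setting tried, each of the 4660 that was tested kept its sign, which their choice by this same difference largely fixed. Leaving out RGA-GR Dex replicate 2 brought the count to 1874, and leaving out nontransgenic Dex replicates 1 and 2 brought it to 2961 and 3099.

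**Figure D1:**
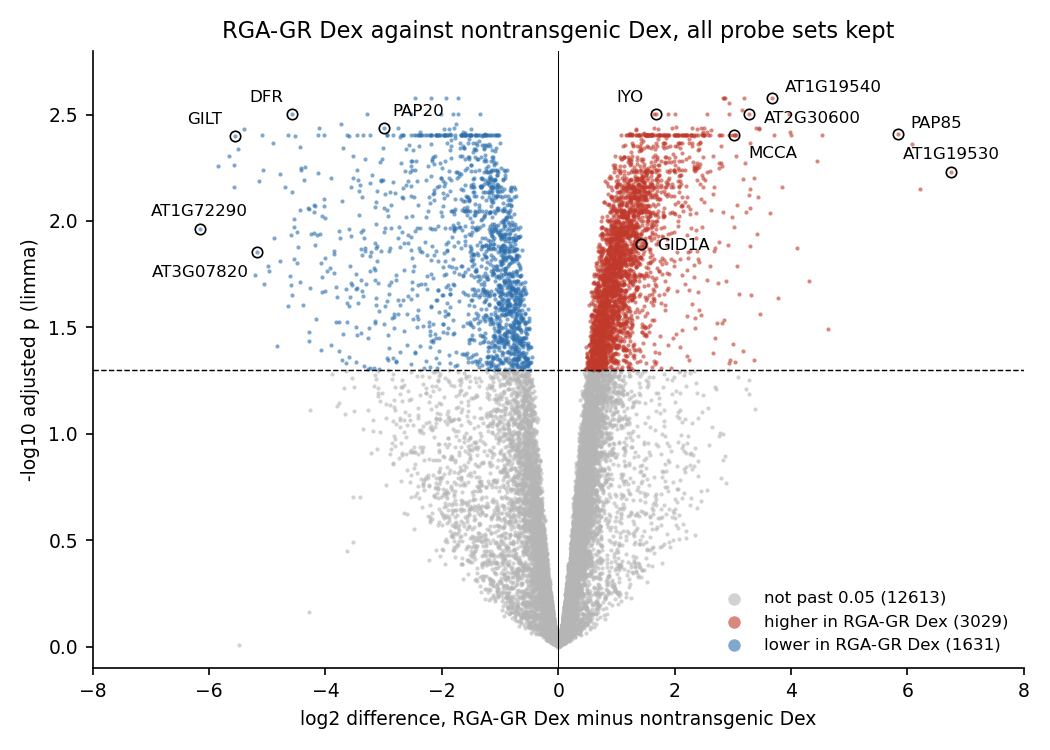
Each point is 1 of 17273 probe sets, with the log2 difference of RGA-GR Dex minus nontransgenic Dex on the x axis and -log10 of the limma adjusted p on the y axis; the dashed line is 0.05. There are fewer falls (blue, 1631) than rises (red, 3029), and more of the falls lie past 8-fold, 176 against 47; AT1G19530 and PAP85 stand at the far right.

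RGA-GR Dex arrays were less alike than nontransgenic arrays. Among falls of at least 4-fold, RGA-GR Dex replicate 1 was the highest of its group in 285 of 377 (75.6%), and in 139 it read 0.00. Among rises of at least 4-fold, it was the lowest in 168 of 236 (71.2%). Over all probe sets that fell, the median log2 ratio was -0.07 on RGA-GR Dex replicate 1, -0.60 on replicate 2 and -0.47 on replicate 3, and it lay between 0.71 and 0.83 on the nontransgenic arrays. Replicate 1 therefore stood nearest to the nontransgenic plants in most large changes. The groups did not overlap in all but 41 of the 4660 calls, which were chosen by this same difference. The count without replicate 1 was 4724. Of the probe sets tested, 83 passed the filter on low ratios through the nontransgenic arrays alone (27 of them fell) and 5 through the RGA-GR Dex arrays alone (1 rose), and those had to differ.

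AT1G19530 rose more than any other named gene. Its log2 ratios were 0.95, 3.33 and 3.32 on the RGA-GR Dex arrays and -4.20, -3.94 and -4.51 on the nontransgenic arrays, a difference of 6.75 ± 1.19 or 108-fold (adjusted p = 0.00587). All 3 RGA-GR Dex arrays were far above the nontransgenic ones, and the mock arrays ran from near the nontransgenic arrays to above RGA-GR Dex replicate 1, at -3.81, 1.35 and -0.25. Its neighbour on the chromosome, AT1G19540, read 0.70, 1.69 and 1.49 against -2.04, -2.35 and -2.78, which is 12.8-fold (3.68 ± 0.36, adjusted p = 0.00266). There the mock arrays, at 0.16, -0.01 and 0.00, stood above every nontransgenic array and below every RGA-GR Dex array. Neither gene has a named function in the tables used here, and AT1G19530 has a row median under 1, for which the divisor of the ratio is not known.

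PAP85, a seed storage protein gene of the vicilin type, was the second of the large rises. It read 0.00, 1.75 and 1.82 on the RGA-GR Dex arrays and -4.31, -5.22 and -4.41 on the nontransgenic arrays, 57.1-fold higher (5.83 ± 0.77, adjusted p = 0.00392). The mock arrays read -0.41, 0.81 and 0.93, so the transgenic line was high with and without Dex. SAMTL, named as a transporter-like gene for S-adenosylmethionine, had the tightest values of the large rises. RGA-GR Dex arrays read 0.42, 0.44 and 0.33 and nontransgenic arrays -2.97, -2.94 and -2.97, a 10.2-fold difference (3.36 ± 0.61, adjusted p = 0.00627). Its mock arrays read 0.00, 0.09 and -0.98.

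The rest of the 12 largest rises lay between 3.17 and 3.98. AT3G62950 (3.98 ± 0.51), AT2G30600 (3.28 ± 0.37) and AT1G10340 (3.45 ± 0.43) passed under every alternative tried. Other large rises lost their calls when 1 array was left out. AT4G37220 (3.17) did so without RGA-GR Dex replicate 2 or 3 or nontransgenic Dex replicate 2, the last of which gave 1.83, and AT2G16670 (3.31), a pseudogene, without RGA-GR Dex replicate 2 or 3. AT5G39390 (3.37) and the pseudogene AT1G32840 (3.46) lost theirs without any one of 5 arrays. A second probe set of AT2G30600 rose as well, by 3.84 ± 0.72. PDF1.4, a plant defensin gene, read 0.39, 0.53 and 0.73 against -2.60, -2.11 and -2.79 and was 8.28-fold higher (3.05 ± 0.50, adjusted p = 0.00494). Its mock arrays, at -0.75, 0.03 and 0.00, lay above all nontransgenic arrays.

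**Figure D2:**
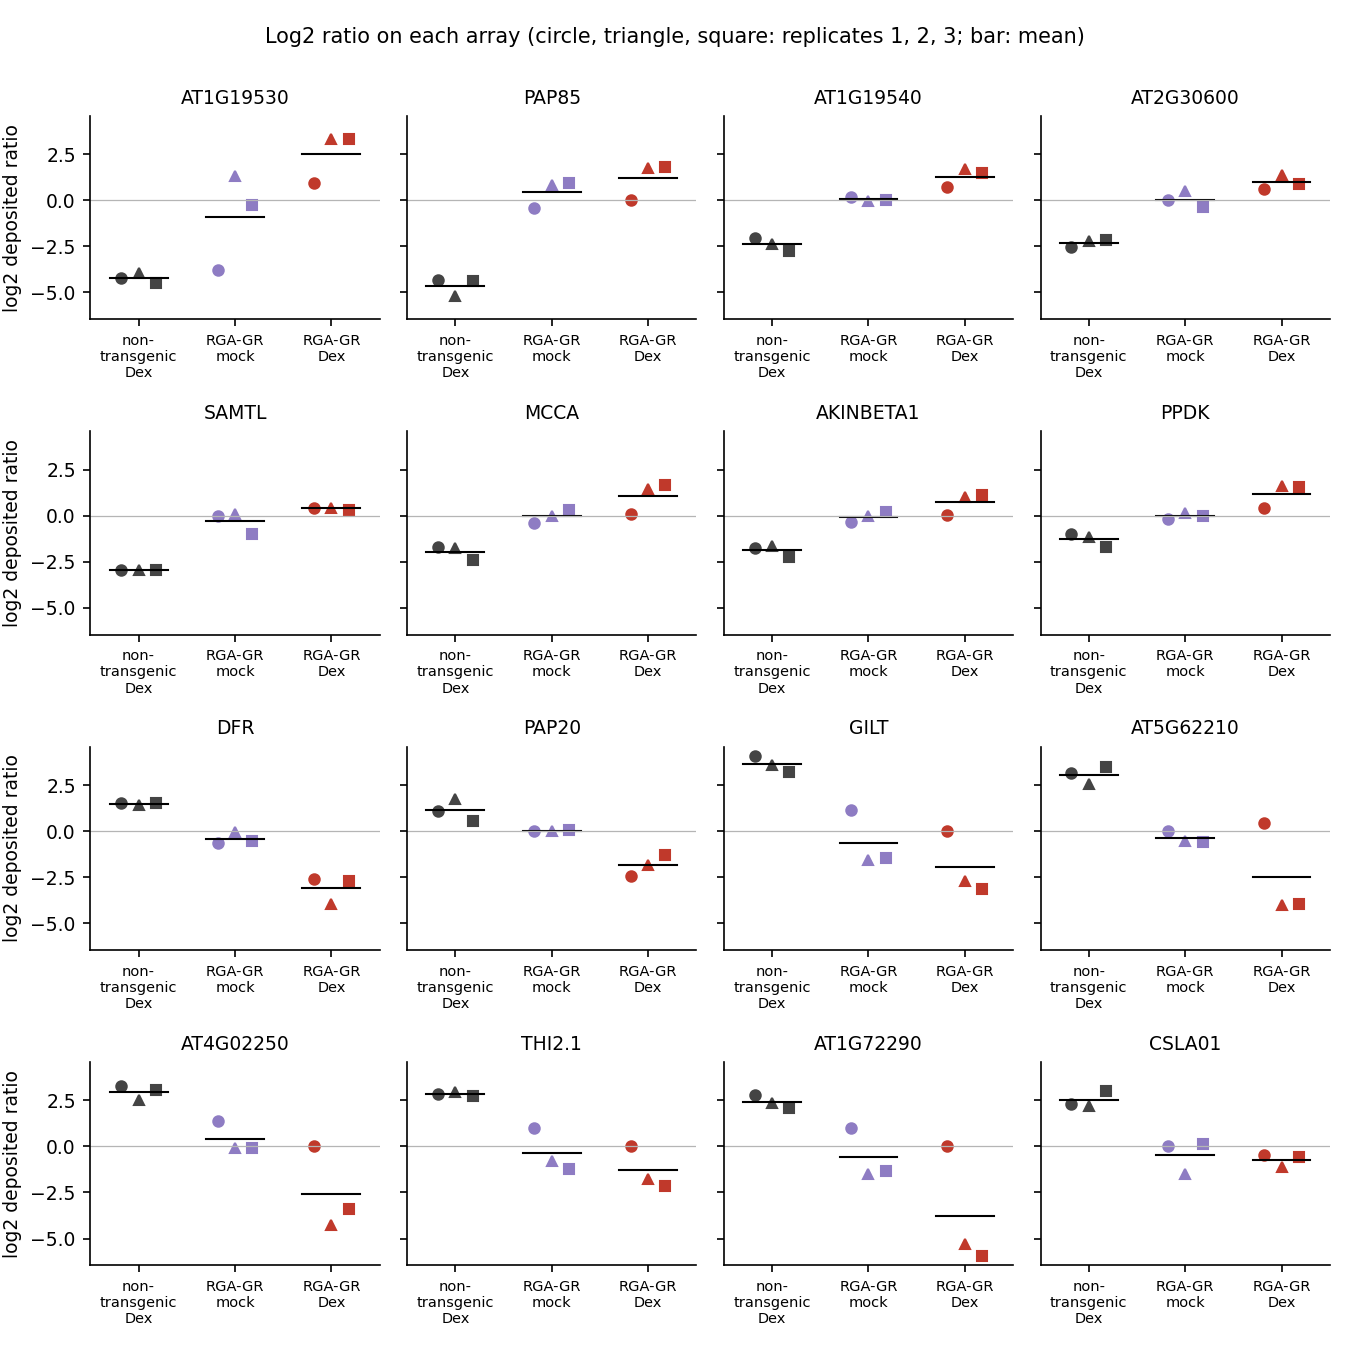
Log2 deposited ratio of 16 genes on each of the 9 arrays, by group; symbols mark replicates 1, 2 and 3 and bars the group means. In the first 8 genes all RGA-GR Dex arrays lie above all nontransgenic arrays, in the last 8 below them, and for GILT, AT5G62210, AT4G02250, THI2.1 and AT1G72290 RGA-GR Dex replicate 1 sits apart from replicates 2 and 3.

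Several genes of amino acid and carbon breakdown were among the larger rises. They were chosen after their values were seen, so no count over them is given. BCAT2, DIN4, DIN10, SEN1 and ASN1 were looked up by name in the same way and gave no call. Each was either not measured under that name or did not pass. MCCA encodes a subunit of methylcrotonyl-CoA carboxylase, a mitochondrial enzyme of leucine breakdown. It read 0.07, 1.44 and 1.68 on the RGA-GR Dex arrays and -1.71, -1.76 and -2.40 on the nontransgenic arrays, 8.11-fold higher (3.02 ± 0.44, adjusted p = 0.00395), with mock arrays at -0.39, 0.00 and 0.34. IVD, the dehydrogenase that acts just before it, was 4.58-fold higher, with 0.04, 0.70 and 0.67 against -1.63, -1.52 and -2.02 (2.20 ± 0.37, adjusted p = 0.0051). ETFQO, which passes electrons from such dehydrogenases to the respiratory chain, was 4.13-fold higher (2.05 ± 0.33, adjusted p = 0.00446). The other carboxylase subunit gene, MCCB, read 0.00, 1.20 and 1.35 against -0.62, -0.60 and -0.77 and was 2.85-fold higher (1.51 ± 0.35, adjusted p = 0.0132), a call lost without RGA-GR Dex replicate 2 (1.34, adjusted p = 0.0622). In each of these 4 genes, RGA-GR Dex replicate 1 was the lowest of its group and still above all nontransgenic arrays.

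AKINBETA1 encodes a regulatory subunit of the SnRK1 kinase, which responds to low energy. It read 0.04, 1.01 and 1.11 against -1.73, -1.62 and -2.22, a 5.97-fold difference (2.58 ± 0.39, adjusted p = 0.00395). PPDK, pyruvate orthophosphate dikinase, was 5.61-fold higher, at 0.41, 1.61 and 1.58 against -1.02, -1.15 and -1.69 (2.49 ± 0.32, adjusted p = 0.00383). The mock arrays of PPDK, from -0.17 to 0.14, lay between the groups, and those of AKINBETA1, from -0.32 to 0.18, overlapped RGA-GR Dex replicate 1. SDP1, the lipase that opens storage oil breakdown, was 3.05-fold higher (1.61 ± 0.21, adjusted p = 0.00392), and ACLA-3, a subunit of ATP-citrate lyase, was 3.15-fold higher (1.66 ± 0.25, adjusted p = 0.00395). These 4 genes, likewise chosen after their values were seen, passed under every alternative tried.

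Genes of GA perception and signalling were higher in RGA-GR Dex. Of 7 measured, 5 rose and 0 fell, with all 7 means higher and a median of 0.82, where 16.1% of all genes measured rose and their median was 0.12. The 3 GA receptor genes rose together. GID1A read -0.25, 0.34 and 0.54 on the RGA-GR Dex arrays and -1.64, -1.12 and -0.85 on the nontransgenic arrays, 2.67-fold higher (1.42 ± 0.33, adjusted p = 0.0128). GID1C read 0.41, 0.78 and 0.62 against -1.04, -0.45 and -0.80, 2.58-fold higher (1.36 ± 0.31, adjusted p = 0.0122). GID1B read 0.57, 1.08 and 0.84 against 0.28, -0.04 and -0.20, 1.76-fold higher (0.82 ± 0.20, adjusted p = 0.0157).

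The mock arrays divided the receptors. For GID1A they read 0.13, 0.00 and 0.16 and for GID1B 0.00, -0.30 and -0.28, so the mock arrays of GID1A lay among the RGA-GR Dex values and those of GID1B with the nontransgenic ones. The differences of RGA-GR Dex from mock were 0.11 ± 0.33 for GID1A, 0.62 ± 0.31 for GID1C and 1.03 ± 0.20 for GID1B, and no gene passed in that comparison (0.00%; 1525 probe sets, or 8.83%, at an unadjusted p under 0.05). Same-numbered RGA-GR Dex and mock arrays deviated together (r of 0.332, 0.118 and 0.325), and with the number as a block 0 passed as well (1911 at an unadjusted p under 0.05 over 9 arrays and 2433 over the 6 transgenic arrays). Whether the receptors differ from each other was not tested.

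SLY2, an F-box protein gene related to the one that targets DELLA proteins, read 0.45, 0.30 and 0.70 against -0.45, -0.15 and -0.56 and was 1.82-fold higher (0.87 ± 0.19, adjusted p = 0.0114). SPY, which encodes a sugar transferase that modifies DELLA proteins, was 1.49-fold higher (0.57 ± 0.17, adjusted p = 0.0324). The other 2 members, the F-box gene SLY1 (0.29) and the transferase gene SEC (0.27), did not pass. The list rested on 1 array to a large degree. Without RGA-GR Dex replicate 2, SLY2 alone passed, and the receptors stood at 1.35 for GID1A (adjusted p = 0.0524), 1.28 for GID1C (0.0589) and 0.69 for GID1B (0.062). Without nontransgenic Dex replicates 2 and 3, GID1B was at 0.79 (adjusted p = 0.0797) and 0.71 (0.105), and SPY was lost without any of 4 arrays (adjusted p from 0.0906 to 0.116).

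Other hormone genes moved in both directions. Of 9 auxin genes, 2 rose and 0 fell, near the 16.1% of all genes that rose. Both were GH3 genes, whose enzymes join auxin to amino acids. GH3.3 read 0.95, 0.30 and 0.58 against -1.11, -0.77 and -0.53, 2.66-fold higher (1.41 ± 0.23, adjusted p = 0.00452). WES1, also called GH3.5, was 2.77-fold higher (1.47 ± 0.35, adjusted p = 0.0138), a call lost without RGA-GR Dex replicate 2 (1.42, adjusted p = 0.0579). EIN3, the transcription factor of ethylene responses and the only ethylene gene of the list matched by name, read -0.05, 0.57 and 0.31 against -0.91, -0.82 and -1.01 (1.20 ± 0.23, adjusted p = 0.00764). Of 3 jasmonate genes matched by name, the 2 that passed the filter both fell (9.21% of all genes fell). JMT, which makes methyl jasmonate, read -0.08, -1.54 and -1.29 against 0.64, 0.88 and 1.40, 3.84-fold lower (-1.94 ± 0.36, adjusted p = 0.00662). OPCL1, a ligase of jasmonate synthesis, was 2.14-fold lower (-1.10 ± 0.25, adjusted p = 0.0128).

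Nuclear genes of photosynthesis were higher in RGA-GR Dex. Of 12 measured, 8 rose and 0 fell, with a median of 0.84, where 16.1% of all genes rose. The count was 4 after quantile normalization, 5 with array medians subtracted and 1 with the replicate block over 6 arrays. PSAN, a subunit of photosystem I, showed the largest of these differences. It read -0.01, 0.00 and 0.29 on the RGA-GR Dex arrays and -1.62, -1.65 and -1.62 on the nontransgenic arrays, 3.31-fold higher (1.73 ± 0.31, adjusted p = 0.00611). LHCB4.2, a light-harvesting protein of photosystem II, read 0.00, 0.12 and 0.40 against -1.20, -1.56 and -1.25, 2.85-fold higher (1.51 ± 0.30, adjusted p = 0.00785). RCA, Rubisco activase, read 0.09, -0.13 and 0.00 against -1.10, -1.25 and -1.20 and was 2.25-fold higher (1.17 ± 0.30, adjusted p = 0.0177).

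In these genes the mock arrays stood with the RGA-GR Dex arrays. Mock values were 0.26, 0.19 and 0.44 for PSAN, -0.15, 0.28 and 0.27 for LHCB4.2 and 0.00, 0.00 and 0.01 for RCA, and the list's median on each mock array lay between -0.02 and 0.26, against 0.00 to 0.30 on RGA-GR Dex and -0.75 to -0.51 on nontransgenic arrays. The other members that rose were the photosystem genes PSB27 (0.95 ± 0.24), PSAE-1 (0.94 ± 0.25), PSBY (0.83 ± 0.26) and LHCB4.1 (0.70 ± 0.21) and the Calvin cycle gene PRK (0.84 ± 0.22). Without RGA-GR Dex replicate 2 these 5 lost their calls (adjusted p from 0.0502 for PRK to 0.11 for LHCB4.1) and 3 of 12 passed, and without replicate 3 the count was 4. CHLM, an enzyme of chlorophyll synthesis chosen after its values were seen, read 0.04, 0.09 and 0.43 against -1.35, -1.59 and -1.47, 3.16-fold higher (1.66 ± 0.31, adjusted p = 0.00689).

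Plastid-encoded genes gave no direction that held. Of 68 plastid-encoded genes measured, 5 rose and 0 fell, and 42 of 68 had lower means, with a median of -0.23 (16.1% of all genes rose and 9.21% fell). Their median on RGA-GR Dex replicate 1 was -1.26, on replicate 2 it was 0.00 and on replicate 3 it was 0.90, a spread wider than the distance between the groups. Its sign turned with spike-in signal as a block, to 0.81 with 64 of 68 means higher, and without RGA-GR Dex replicate 1, to 0.32 with 47 of 68 higher and 9 rises, so no direction is given for the list. Of the 5 rises, the call of the ribosomal protein gene rps14 (1.55 ± 0.31, adjusted p = 0.00841) held when any one array was left out, and without nontransgenic Dex replicate 3 it was the 1 rise.

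**Figure D3:**
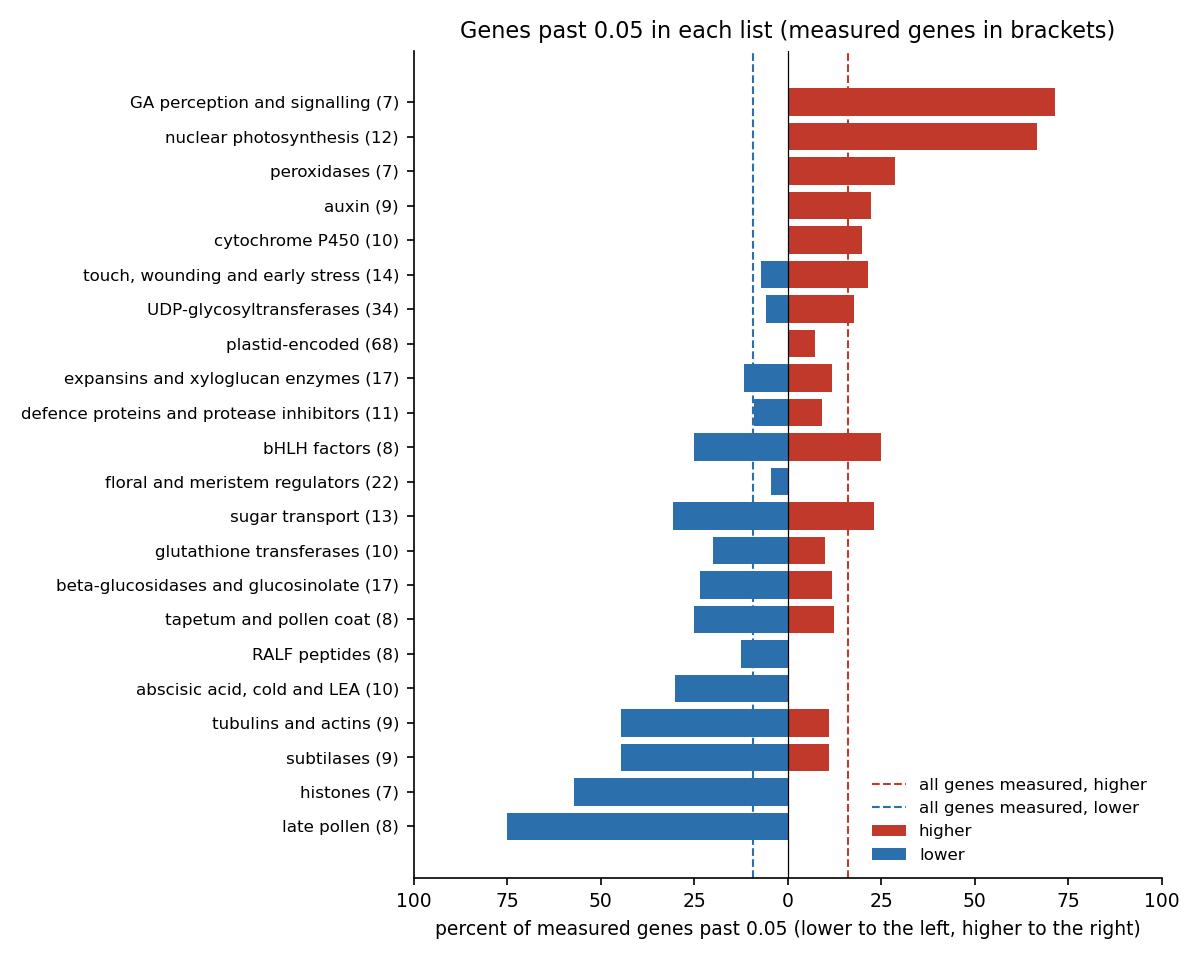
Percent of the measured genes of each list that rose (red, right) or fell (blue, left); the number measured is in brackets and the dashed lines are the shares over all 9524 genes, 16.1% and 9.21%. GA perception and nuclear photosynthesis lie far to the right, and late pollen and histones far to the left; lists with fewer than 7 measured genes are not drawn.

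The largest falls were in genes with high values on every nontransgenic array. AT1G72290 read 0.00, -5.30 and -5.96 on the RGA-GR Dex arrays and 2.81, 2.34 and 2.08 on the nontransgenic arrays, 71.6-fold lower (-6.16 ± 1.35, adjusted p = 0.0109). Its replicate 1 was far above replicates 2 and 3 and below all nontransgenic arrays, and the mock arrays read 1.03, -1.51 and -1.31. AT5G62210 read 0.45, -4.02 and -3.96 against 3.17, 2.54 and 3.45 (-5.57 ± 0.95, adjusted p = 0.00546), and AT4G02250 read 0.00, -4.28 and -3.41 against 3.27, 2.51 and 3.06 (-5.51 ± 0.89, adjusted p = 0.0046). In both, replicate 1 was again the highest of its group, and the mock arrays, from -0.61 to 0.00 for AT5G62210 and from -0.11 to 1.39 for AT4G02250, were below all nontransgenic arrays. GILT, named after a lysosomal thiol reductase first known from mammals, read 0.00, -2.70 and -3.12 against 4.08, 3.56 and 3.23, 47.3-fold lower (-5.56 ± 0.86, adjusted p = 0.004). Its mock arrays, at 1.15, -1.57 and -1.49, were all below the nontransgenic ones.

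DFR differed from these genes in that all 3 RGA-GR Dex arrays were low. DFR encodes dihydroflavonol reductase, an enzyme of anthocyanin synthesis. It read -2.59, -3.99 and -2.69 against 1.52, 1.42 and 1.52, 23.9-fold lower (-4.58 ± 0.52, adjusted p = 0.00315). The gap between the nearest arrays of the groups, 4.01, was the widest of any named gene that fell, and the mock arrays lay in that gap, at -0.66, -0.02 and -0.55. UF3GT, a glycosyltransferase gene of anthocyanins, read -3.98, -2.73 and -3.58 against 0.29, -0.13 and 0.45, 12.4-fold lower (-3.631 ± 1.002, adjusted p = 0.0243). Its mock arrays were as low as those with Dex, at -3.29, -3.25 and -3.70, and the call was lost without any one of the RGA-GR Dex arrays (adjusted p from 0.0752 to 0.0839). Of the 3 anthocyanin and flavonoid genes measured, these 2 fell (9.21% of all genes fell). UF3GT passed the filter on low ratios through the nontransgenic arrays alone, so it had to differ and its fall adds no support. With the filter at the 60th percentile it was not tested, and 1 of 2 genes fell. DFR and UF3GT both have a row median under 1.

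Other single genes fell on all 3 RGA-GR Dex arrays. PAP20, a purple acid phosphatase gene chosen after its values were seen, read -2.45, -1.83 and -1.32 against 1.07, 1.73 and 0.56, 7.93-fold lower (-2.99 ± 0.37, adjusted p = 0.00366), with mock arrays at 0.00, -0.02 and 0.05. CSLA01, a mannan synthase gene chosen in the same way, read -0.44, -1.13 and -0.59 against 2.30, 2.22 and 3.02, 9.42-fold lower (-3.24 ± 0.45, adjusted p = 0.00395). Its mock arrays, at 0.00, -1.47 and 0.15, overlapped the RGA-GR Dex arrays. THI2.1, which encodes an antimicrobial thionin, read 0.00, -1.76 and -2.13 against 2.85, 2.94 and 2.72, 17.5-fold lower (-4.13 ± 0.62, adjusted p = 0.00395). In the list of defence proteins and protease inhibitors it was the 1 member of 11 that fell, and PDF1.4 the 1 that rose (9.21% and 16.1% of all genes).

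Genes of late pollen were lower in RGA-GR Dex. Of 8 measured, 6 fell and 0 rose, and all 8 means were lower, with a median of -3.43 (9.21% of all genes measured fell). AT5G45880 read 0.00, -3.25 and -2.83 on the RGA-GR Dex arrays and 2.504, 2.222 and 2.473 on the nontransgenic arrays, 21.5-fold lower (-4.43 ± 0.76, adjusted p = 0.00561). AT1G29140 read 0.00, -3.27 and -1.63 against 2.93, 2.55 and 2.68, 20.4-fold lower (-4.35 ± 0.75, adjusted p = 0.00558). AT3G07820 read 0.00, -3.84 and -5.12 against 2.52, 1.93 and 2.09, 36.0-fold lower (-5.17 ± 1.22, adjusted p = 0.014). RGA-GR Dex replicate 1 was at or near 0.00 in these genes and replicates 2 and 3 were far lower.

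MGH3, a histone H3 gene of the male gametes, was 3.63-fold lower (-1.86 ± 0.50, adjusted p = 0.022). The pectate lyase gene AT59 fell by 3.71 (SE 1.21, adjusted p = 0.0452), a call lost without any one of 5 arrays. That call was also lost with the filter at the 60th percentile. AT59 has a row median under 1, for which the divisor of the ratio is not known. With only probe sets of row median 1, 5 of 6 late pollen genes fell. The pollen actin gene ACT12 did not pass (-1.97, adjusted p = 0.067) and was at -1.14 without RGA-GR Dex replicate 2. By array, the list's median was 0.00, -3.20 and -2.23 in RGA-GR Dex, 0.76, -1.15 and -1.15 in RGA-GR mock, and 1.44, 1.27 and 1.08 in nontransgenic Dex. The mock arrays were below the nontransgenic ones too, and the array numbered 1 was the highest in both transgenic groups. Without RGA-GR Dex replicate 2, the calls that held were AT5G45880 and AT1G29140, with AT3G07820 at -4.74 (adjusted p = 0.0562), MGH3 at -1.87 (0.0678) and AT59 at -2.82 (0.108). Without nontransgenic Dex replicate 1 it was again those 2, with AT3G07820 at -4.998 (adjusted p = 0.0513). In whole inflorescences, fewer cells of a type and less RNA per cell cannot be told apart.

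**Figure D4:**
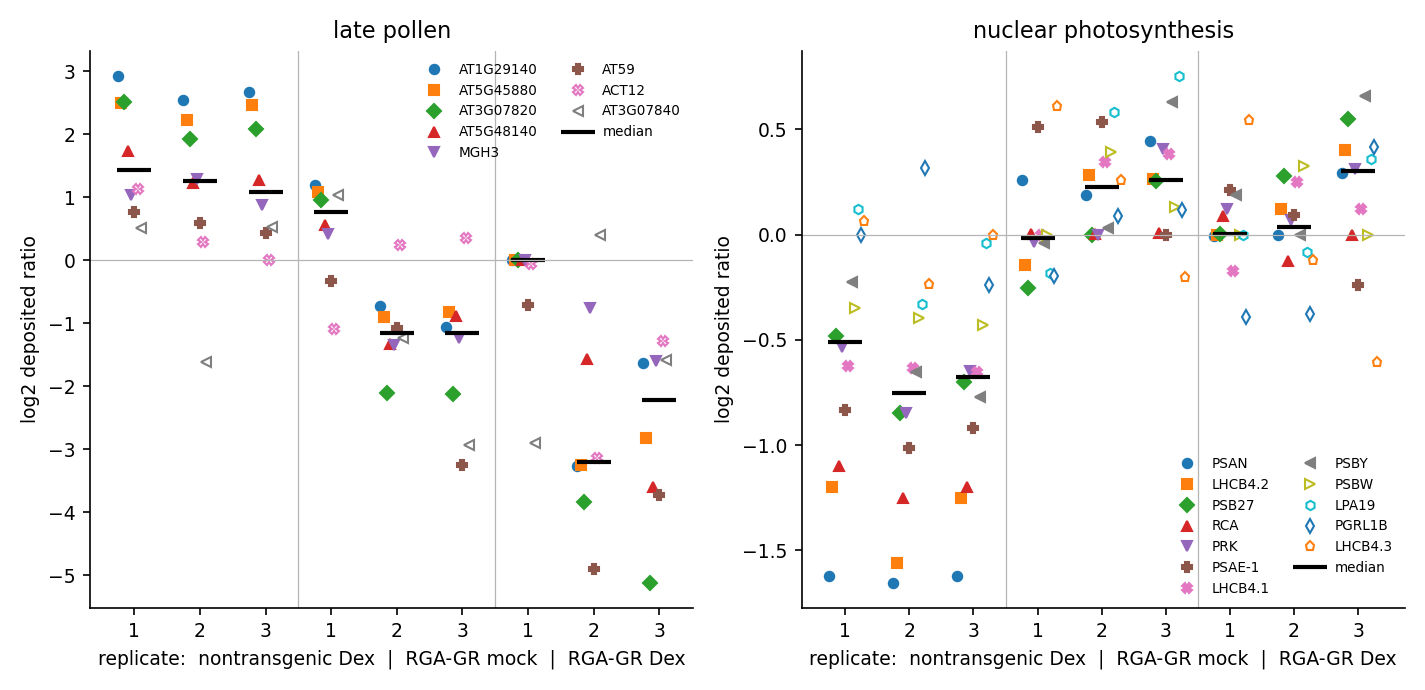
Log2 deposited ratio on each of the 9 arrays for the measured genes of late pollen (left) and of nuclear photosynthesis (right); filled symbols mark an adjusted p under 0.05 for the comparison and black bars are the list's median on that array. The pollen medians of RGA-GR Dex, at 0.00, -3.20 and -2.23, lie below the nontransgenic ones, and the photosynthesis medians of both transgenic groups lie above the nontransgenic ones.

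The tapetum, the tissue that feeds developing pollen, gave no common direction. The list of tapetum and pollen coat genes had 8 measured members with a median of -0.30, of which 1 rose and 2 fell (16.1% and 9.21% of all genes). Leaving out RGA-GR Dex replicate 1 gave 3 falls, and leaving out any other array of the comparison gave 1, which was SHT. SHT, which makes spermidine conjugates of the pollen coat, read 0.31, -0.67 and -0.79 against 1.72, 1.39 and 1.77, 4.03-fold lower (-2.01 ± 0.30, adjusted p = 0.00395). AT5G52160 read 0.66, 0.76 and 0.00 against -0.94, -1.54 and -1.41 and was 3.41-fold higher (1.77 ± 0.33, adjusted p = 0.00678). Of the 22 genes measured from the list of floral and meristem regulators, 1 fell and 0 rose. The fall was that of the glutaredoxin gene GRX480, which entered the list through its family name, ROXY, and not as a known floral regulator. It was at -1.10 ± 0.35 (adjusted p = 0.041), a call lost without any one of 5 arrays (adjusted p from 0.0703 to 0.159).

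Some histone and tubulin genes fell. Of 7 histone genes, 4 fell, 0 rose and 3 did not pass, those 3 with higher means, and the median was -0.98 (9.21% of all genes fell). HTB1, a histone H2B gene, read 0.04, -0.51 and -0.69 against 1.01, 0.55 and 0.77, 2.24-fold lower (-1.16 ± 0.21, adjusted p = 0.00654). HTR12, the histone H3 of centromeres, read -0.12, -0.02 and -0.66 against 1.07, 0.70 and 1.42, 2.51-fold lower (-1.33 ± 0.25, adjusted p = 0.00695). It has a row median under 1, for which the divisor of the ratio is not known. With only probe sets of row median 1, 3 of 6 histone genes fell, with a median of -0.41. MGH3 of the pollen list was the third, and HTB2 the fourth at -0.98 ± 0.30, a call lost without any of 5 arrays (adjusted p from 0.0836 to 0.137). Without any one of RGA-GR Dex replicates 2 and 3 and nontransgenic replicates 1 and 2, the calls that held were HTB1 and HTR12.

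Of 9 tubulin and actin genes, 4 fell, 1 rose and 4 did not pass, with a median of -0.84 (9.21% of all genes fell and 16.1% rose). TUA6 read 0.14, -0.57 and -0.29 against 0.81, 0.64 and 0.69 and was 1.94-fold lower (-0.95 ± 0.20, adjusted p = 0.0102). TUB1 was 6.25-fold lower, but its RGA-GR Dex arrays read -0.20, -0.07 and -3.12, and without replicate 3 the fall was -1.65 (adjusted p = 0.0234). TUA1 went the other way, at 0.03, 0.04 and 0.22 against -0.91, -1.18 and -1.31, 2.34-fold higher (1.23 ± 0.31, adjusted p = 0.017). Mock values of all 3 genes overlapped those of RGA-GR Dex. Without RGA-GR Dex replicate 2 or nontransgenic Dex replicate 1, 2 of the 9 fell. The part of the late pollen genes' fall in these 2 lists was not tested.

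Sugar transport genes split. Of 13 measured, 3 rose and 4 fell (16.1% and 9.21% of all genes), all of them SWEET genes, whose proteins let sugars pass membranes. SWEET4 read 0.00, -0.23 and -0.33 against 1.90, 1.91 and 1.55, 3.94-fold lower (-1.98 ± 0.36, adjusted p = 0.00649). SWEET10 read 0.54, 0.40 and 0.63 against -0.66, -1.22 and -1.10, 2.85-fold higher (1.51 ± 0.26, adjusted p = 0.00576), and SWEET17 was 2.73-fold higher (1.45 ± 0.30, adjusted p = 0.00891). TMT3, a vacuolar sugar importer outside the list and chosen after its values were seen, read -0.10, -1.37 and -0.83 against 1.46, 1.69 and 1.73, 5.25-fold lower (-2.39 ± 0.35, adjusted p = 0.00395). APL4, a subunit of the enzyme that opens starch synthesis, chosen likewise, was 4.69-fold lower (-2.23 ± 0.46, adjusted p = 0.00897). Mock arrays of SWEET4 lay between -0.06 and 0.20, below all its nontransgenic arrays. Without RGA-GR Dex replicate 2 or nontransgenic Dex replicate 1 or 3, SWEET4 was the 1 of 13 that fell.

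Counts among wall genes were near those over all genes (16.1% higher and 9.21% lower). Of 17 expansins and xyloglucan enzymes, which loosen and rebuild the cell wall, 2 rose and 2 fell, and 13 of 17 had lower means, with a median of -0.86. EXGT-A3, a xyloglucan enzyme, read 0.00, 0.786 and 1.004 against -1.01, -1.04 and -0.94, 3.02-fold higher (1.59 ± 0.28, adjusted p = 0.00584). EXPA15, an expansin, read 0.00, -0.89 and -1.36 against 0.69, 0.58 and 0.79, 2.71-fold lower (-1.44 ± 0.30, adjusted p = 0.00942). Mock values were -0.02, 0.31 and 0.77 for EXGT-A3 and 0.09, -0.13 and -0.21 for EXPA15. Without RGA-GR Dex replicate 1, 7 of the 17 fell, and without any other array of the comparison 1 did. BGLU45 and BGLU46, neighbouring genes for beta-glucosidases that act on lignin precursors, rose together. BGLU46 read 0.22, 2.26 and 1.83 against -1.25, -1.19 and -1.56, 6.82-fold higher (2.77 ± 0.42, adjusted p = 0.00395), and BGLU45 was 6.07-fold higher (2.60 ± 0.46, adjusted p = 0.00585). They were the 2 rises among 17 genes of beta-glucosidases and glucosinolates, where 4 fell, or 1 without any one of RGA-GR Dex replicates 2 and 3 and nontransgenic Dex replicate 1.

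Genes of stress and detoxification gave the following counts. Of 10 genes of abscisic acid, cold and late embryogenesis abundant (LEA) proteins, 3 fell and 0 rose, with a median of -0.53 (9.21% of all genes fell). COR15A, a chloroplast protein of cold tolerance, read 0.22, -0.50 and -0.46 against 1.69, 1.07 and 1.15, 2.93-fold lower (-1.55 ± 0.26, adjusted p = 0.00498). AT2G46140, also called LEA27, read -0.03, -0.84 and -0.81 against 1.95, 1.89 and 1.70, 5.31-fold lower (-2.41 ± 0.34, adjusted p = 0.00395). Of 10 glutathione transferase genes, 2 fell and 1 rose, and GSTU20 was 7.65-fold lower, at 0.00, -1.60 and -1.86 against 1.93, 1.51 and 1.91 (-2.94 ± 0.44, adjusted p = 0.00395). Of 34 UDP-glycosyltransferase genes, 6 rose and 2 fell, near the shares over all genes (16.1% and 9.21%). UF3GT, which had to differ because of the filter, was among the falls. Quantile normalization, subtraction of array medians or leaving out RGA-GR Dex replicate 1 each brought the rises to 3. UGT85A4 was 5.56-fold higher, at 0.84, 0.74 and 1.40 against -2.93, -0.85 and -0.66 (2.48 ± 0.54, adjusted p = 0.0106). Of 14 genes of touch, wounding and early stress, 3 rose and 1 fell (16.1% and 9.21% of all genes). In that list 0 rose after quantile normalization or without nontransgenic Dex replicate 3. Of 3 heat shock genes none passed.

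Among transcription factors, the counts were small. Of 8 basic helix-loop-helix (bHLH) genes, 2 rose and 2 fell (16.1% and 9.21% of all genes), and 1 rose when any one array of the comparison was left out. ALC, which forms the zone where the fruit opens, read -0.30, -0.26 and -0.32 against 0.51, 0.44 and 0.40, 1.67-fold lower (-0.74 ± 0.14, adjusted p = 0.00704). The mock arrays of ALC, at 0.13, -0.03 and 0.00, lay between the groups. BHLH101, a factor of the response to iron deficiency, was 10.2-fold lower with a row median under 1, at -0.89, -2.19 and 0.13 against 2.84, 1.68 and 2.58 (-3.35 ± 0.74, adjusted p = 0.011). NAC014, the 1 NAC factor matched by name, was 2.95-fold higher (1.56 ± 0.23, adjusted p = 0.00395). IYO, a regulator of RNA polymerase II chosen after its values were seen, had one of the smallest adjusted p values of any named gene, at 0.94, 1.39 and 0.77 against -0.54, -0.73 and -0.68 (3.21-fold, 1.68 ± 0.19, adjusted p = 0.00315). Its mock arrays read -0.03, 0.33 and 0.00, between the groups.

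Genes next to each other on a chromosome rose together more often than genes further apart. Of 3538 pairs of measured genes with no other protein-coding gene between them, both rose in 128 (3.62%), against 3.11% of pairs 2 genes apart and between 2.45% and 2.86% of pairs 3 to 100 genes apart. Both fell in 42 (1.19%), close to the 1.11% of pairs 5 genes apart and above the 0.81% to 0.92% at the other distances. AT3G01240 (-4.89 ± 0.77) and AT3G01250 (-5.15 ± 0.95) were the neighbours with the largest shared fall, and AT1G19530 and AT1G19540 those with the largest shared rise. The 5 chromosomes were alike in their shares, from 15.3% to 17.4% of genes higher and from 8.09% to 10.4% lower. These are descriptions with no test.

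**Figure D5:**
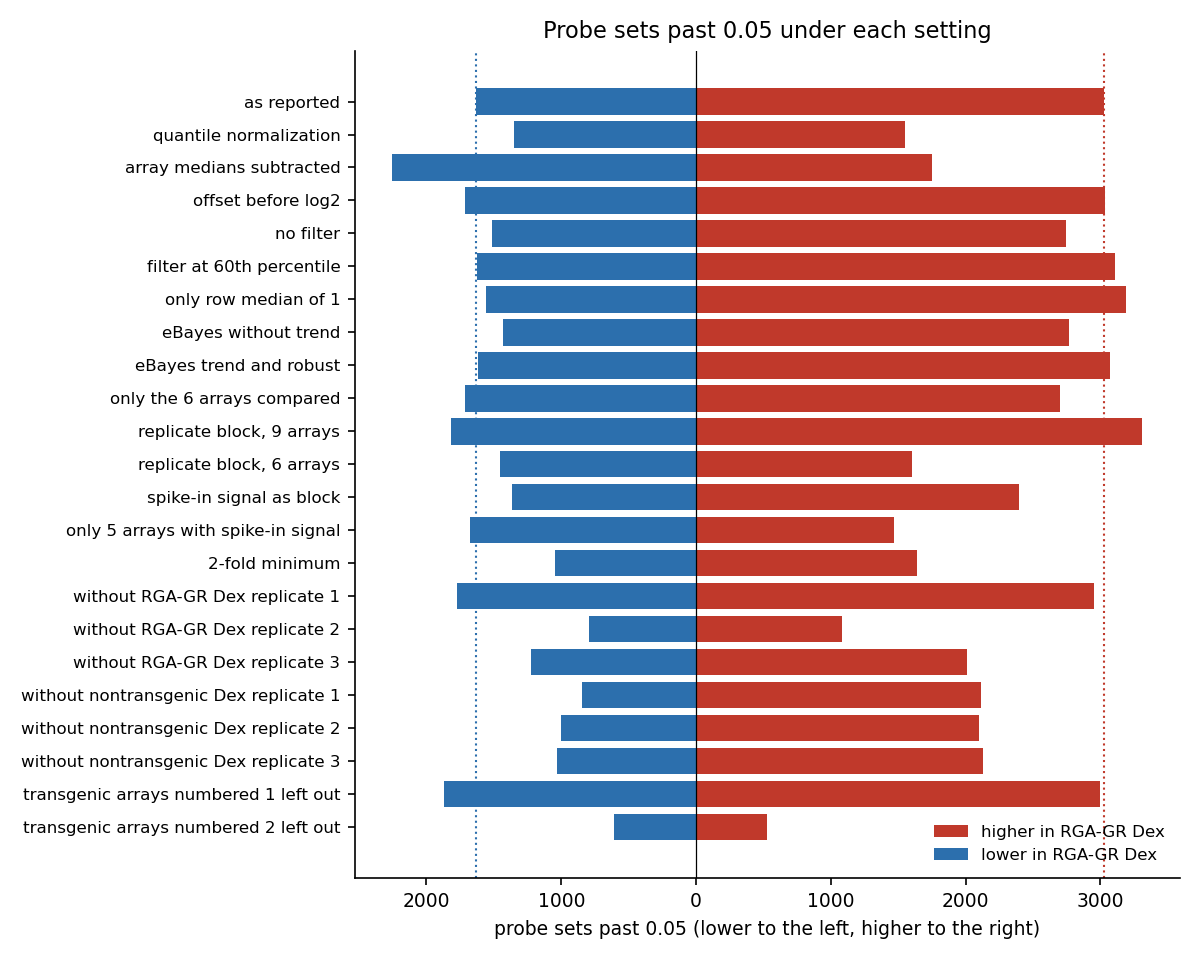
Number of probe sets past 0.05 that rose (red, right) or fell (blue, left) as reported and under each alternative; dotted lines are the counts as reported. The lowest total, 1134, came without the transgenic arrays numbered 2, and falls outnumber rises with array medians subtracted, in the 5 arrays with spike-in signal and without the transgenic arrays numbered 2.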

How the data were processed

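Per the labels' protocols, RNA came from the RNeasy Plant Mini Kit and was measured on Affymetrix arrays. The submitters' processing notes name GCOS. The deposited values are a linear ratio, for most probe sets to the row's own median. The divisor of rows with a median under 1 is not known, and further normalization is not given in the sources used here. Tests used the log2 of the deposited ratio, with no offset. From 22810 probe sets, 64 controls were left out, and probe sets above the array's 40th percentile on at least 3 arrays were kept. limma 3.58.1 (R 4.3.3) was fitted over all 9 arrays with trend, and p-values were adjusted by Benjamini-Hochberg over the 17273 kept. The script was tested on simulated data. Tables and figures used Python 3.11.15, pandas 2.3.3 and matplotlib 3.10.9.

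Of the probe sets kept, 9628 had 1 gene in the platform annotation, 355 had several and 7290 had none. Lists were matched by symbol, synonym or locus, so members of a family without such a match are not counted as measured. Named genes were the 12 largest rises and falls, the 12 rises and falls with the widest gap between groups, and from each list the 4 genes (or fewer) of lowest adjusted p. Other genes, said to be chosen after their values were seen, and PSAE-1, PRK, PSBY, LHCB4.1, SPY, SLY1, SEC and ACT12 were named outside that rule. The members and lists were chosen with earlier results of these data known. The 3 replicates of a group are biologically independent, per the series' design text. Same-numbered RGA-GR Dex and nontransgenic arrays did not deviate together (r of 0.002, 0.009 and -0.003), so their numbers were not taken as pairs; those of RGA-GR Dex and mock did (r of 0.332, 0.118 and 0.325). Alternatives changed the normalization, filter, offset, moderation, arrays fitted and replicate block, and left out arrays.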

Additional observations from a re-analysis of the deposited data

Results flagged for a closer look

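Among the control probe sets, which the comparison left out, that of 25S ribosomal RNA was higher in RGA-GR Dex by 7.55 on the log2 scale, with 3.29, 4.71 and 2.93 against -3.58, -4.02 and -4.12 on the nontransgenic arrays. The mock arrays read 0.00, 4.15 and -1.01. That of 5S ribosomal RNA was higher by 1.60. Both were signals outside the main measurement, and neither was tested across genes. The bioB, bioC, bioD and cre control probe sets also had higher means in RGA-GR Dex, by 0.30 to 1.17, and a link to the values of genes was not tested.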

How the results depend on the processing

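Against 4660 probe sets past 0.05, quantile normalization gave 2906 and a 2-fold minimum 2690. Leaving out the transgenic arrays numbered 2, an alternative chosen after seeing the data, gave 1134. Leaving out single arrays gave 1874 to 4724. The replicate numbers as a block gave 5131 over 9 arrays and 3063 over the 6 compared, though same-numbered RGA-GR Dex and nontransgenic arrays did not deviate together and no pairing was taken from them. RGA-GR Dex and mock arrays of one number did, and with that block, added after seeing the data, RGA-GR Dex against mock still gave 0. For the 2-fold minimum the lower count follows from its construction, and for arrays left out there are fewer samples; for the others the cause was not tested. The share of higher calls was 65.0%, and 53.4% with quantile normalization, 43.7% with array medians subtracted, 52.4% with the replicate block over 6 arrays, 46.6% in the 5 arrays with spike-in signal, of which 1 is RGA-GR Dex, and 46.2% without the transgenic arrays numbered 2. Of 185 called genes chosen for naming, 68 kept their calls in all alternatives run, 50 lost them in 1 to 3 and 67 in more, 70 of them without RGA-GR Dex replicate 2, and 0 changed direction. Their choice by the same difference largely fixed that direction. Ratios to a row median hold no signal over background, so what dim probe sets could show is unknown.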
